A study of Drosophila melanogaster with 24 samples.

Results

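The nicotinic acetylcholine receptor subunits of *Drosophila melanogaster* are a family of 10 genes, nAChRalpha1 to nAChRalpha7 and nAChRbeta1 to nAChRbeta3, abbreviated here to α1 to α7 and β1 to β3. They were taken by their symbols from the deposited gene tables, whatever their values, out of 13700 annotated genes listed in at least 1 library. All 10 were listed in all 24 libraries and passed the filter on low counts, so that all were tested. RNA-Seq of poly(A)-selected RNA was carried out on pooled heads of male flies at days 3, 10, 20, and 30 after eclosion in 2 genotypes, with 3 libraries for each of the 8 groups. The AD flies carried UAS-Aβ42, a transgene for the human amyloid beta peptide, in a w1118 background, driven by the elav-GAL4 c155 line, whereas the sample labels describe them as hAPP transgenic. The WT flies were w1118 flies outcrossed to the same elav-GAL4 c155 line, so that both genotypes carried the driver. The elav driver acts in neurons, and since each library held RNA of many heads, fewer cells of a type and less RNA per cell cannot be told apart in any value below. The labels do not say that the replicates came from separate cultures, and the tests measure the spread between these libraries, which may in part be technical.

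Nicotinic receptors are ion channels of the Cys-loop family, built of 5 subunits around a cation pore, that open when acetylcholine binds between neighbouring subunits. Acetylcholine is the main fast excitatory transmitter of the insect brain, and these receptors carry most of its signal at central synapses. The α subunits hold a pair of adjacent cysteines that take part in the binding site and the β subunits lack it, and several of the fly subunits are the targets of neonicotinoid or spinosyn insecticides.

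The genes lie on 4 chromosome arms of the release 6 genome. Those of α1 (3R, 24393896 to 24457157), α2 (3R, 24485428 to 24491147), and β2 (3R, 24509228 to 24515106) form a cluster of 121211 bases, with 28270 bases between α1 and α2 and 18080 bases between α2 and β2. Outside the cluster, α5 (2L, 14040170 to 14094401), α6 (2L, 9793317 to 9886250), and β3 (2L, 545129 to 547096) lie apart from each other on 2L. On 3L lie α4 (23206669 to 23287448) and β1 (4429349 to 4435993), and on X lie α3 (8276200 to 8367169) and α7 (19327075 to 19348447). The genes of α1, α3, α4, α5, and α6 span 54232 to 92934 bases, that of α7 spans 21373 bases, and those of α2, β1, β2, and β3 span 1968 to 6645 bases. The annotation places all 1532 exon bases of β3 within exons of Ets21C on the opposite strand, so that its counts are uncertain, and 251 exon bases of α3 within CG1636, also on the opposite strand. Whether the counting used the strand is not given in the sources used here. The expected counts of β3 and Ets21C were fractional, but their sum was whole (to within 0.01) in 18 of 18 second-run libraries and in 0 of 6 first-run libraries, so that in the second run reads were divided between these overlapping genes of opposite strands.

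The deposited expected counts summed to 12884945 to 26731357 per library. The lengths listed for some unannotated genes took 2 sets of values and so divided the libraries into 2 sets, called processing runs here. The sample labels name no runs, and whether these also differed in library preparation or sequencing is not given. The first run held replicate 1 of each group of days 3, 10, and 20 (6 libraries, 21168175 to 26731357 counts). The second run held the other 18 libraries (12884945 to 16237611 counts). In first-run libraries 0.104% to 0.138% of counts fell on mt:ND5, a mitochondrial gene, against 1.76% to 8.23% in second-run libraries. Day 30 held second-run libraries only. The white gene w, a working copy of which transgene constructs commonly carry as a marker, was at 1094 to 1832 normalized counts in WT and at 3064 to 4372 in AD, but at 1529 in the library labelled AD day 30 replicate 3, inside the WT range, and the calls between the genotypes at day 30 are therefore also given without it. The library labelled WT day 3 replicate 2 held 654 normalized counts of the yolk protein gene Yp1, against 8.89 to 42.7 in the other day 3 libraries. The 8 neuron markers elav, nSyb, Syt1, brp, Syx1A, para, Appl, and cac were above 0 in all 24 libraries. Normalized counts are counts scaled by TMM (trimmed mean of M-values) to a common library size.

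The 10 subunits covered a wide range of levels per length (FPKM, fragments per kilobase of gene, scaled to library size, as deposited). The β1 subunit was highest in each of the 24 libraries, with the lowest, median, and highest FPKM at 104, 175, and 237 in the second run and 87.8, 109.9, and 134 in the first. It made up 34.0% to 45.9% of the summed FPKM of the 10 genes in the second run. By median in the second run, β1 was followed by α6 (37.5, 74.05, and 96.5), the subunit known as the target of spinosad, and then by β2 (33.9, 38.6, and 47.4), α1 (22.4, 37.1, and 43.3), and α2 (24.8, 28.6, and 39.5). Below these came α7 (18.02, 27.6, and 33.0), known for its part in the giant fibre escape circuit, α5 (12.7, 22.1, and 29.7), α4 (11.04, 18.2, and 22.9), β3 (4.32, 7.97, and 17.9), and α3 (3.33, 5.14, and 6.34).

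Only β1 stood apart from its neighbour without overlap in the second run. The level of α6 was above that of β2 in 17 of 18 second-run libraries, α7 above α5 in 17, and α4 above β3 in 17, whereas β2 was above α1 in 11, α1 above α2 in 11, and α2 above α7 in 12, so that these neighbours were not separated beyond their spread. In the first run the order differed, with α6 below β2, α1 below α2, and α5 below α4 in 6 of 6 libraries. The median FPKM of α1 was 37.1 in the second run and 6.81 in the first, and the length listed for α1 was 1.51 to 3.00 times longer in first-run than in second-run libraries of the same group, which enters the FPKM.

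**Figure D1:**
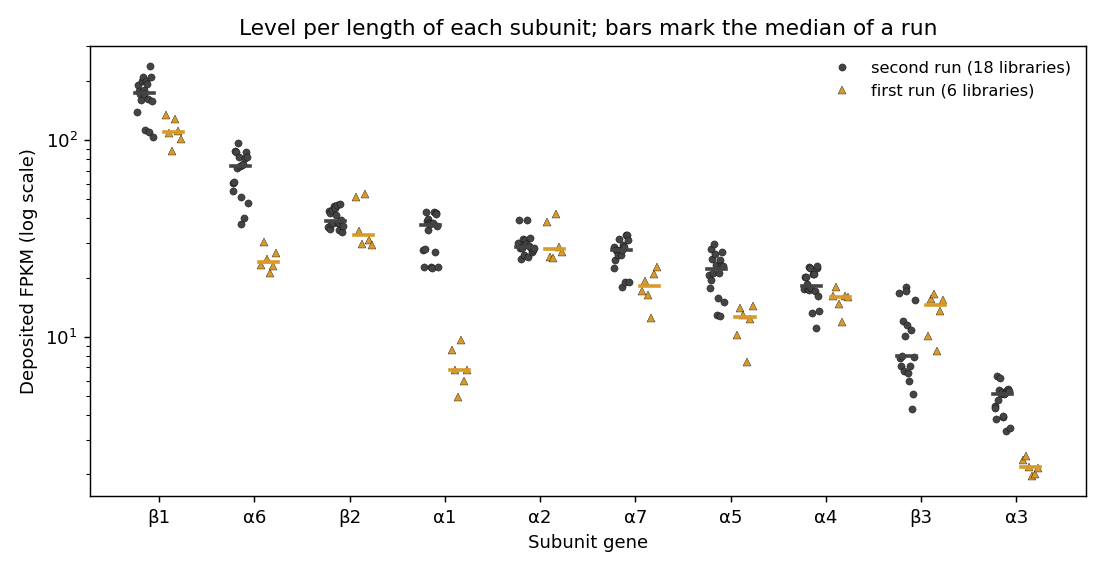
Deposited FPKM (log axis) of each subunit gene in the 18 second-run libraries (circles) and the 6 first-run libraries (triangles), with bars at the medians. Within each run the points of β1 lie above those of the other genes, whereas the first-run points of α1, α3, and α6 lie below all of their second-run points.

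The normalized counts carried the same split by run. Within the 6 groups that hold both runs, α1, α3, α4, α5, α6, α7, and β1 were lower in the first run in 6 of 6 groups, with mean differences in log2 CPM from -0.60 (α4) to -1.43 (α3). These 7 genes stood between the 1.6th and 8.1th percentile of the run difference over the 10479 tested genes, whose median was 0.01. The other 3 differed less or in the other direction, with -0.12 for α2, -0.26 for β2, and 0.61 for β3. For α6 the AD day 3 libraries were at 2552, 4896, and 8882 normalized counts and the AD day 10 libraries at 2929.8, 7611, and 9480.0, where the first value of each is the first-run library. The first-run library was thus the lowest of α6 in all 6 groups that held one. Tested genes of more than 6000 bases had a median run difference of 0.19 and those under 1000 bases of -0.17, so that the 7 subunits, of 3146 to 10506 bases, lay opposite to the trend of all genes with length.

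**Figure D2:**
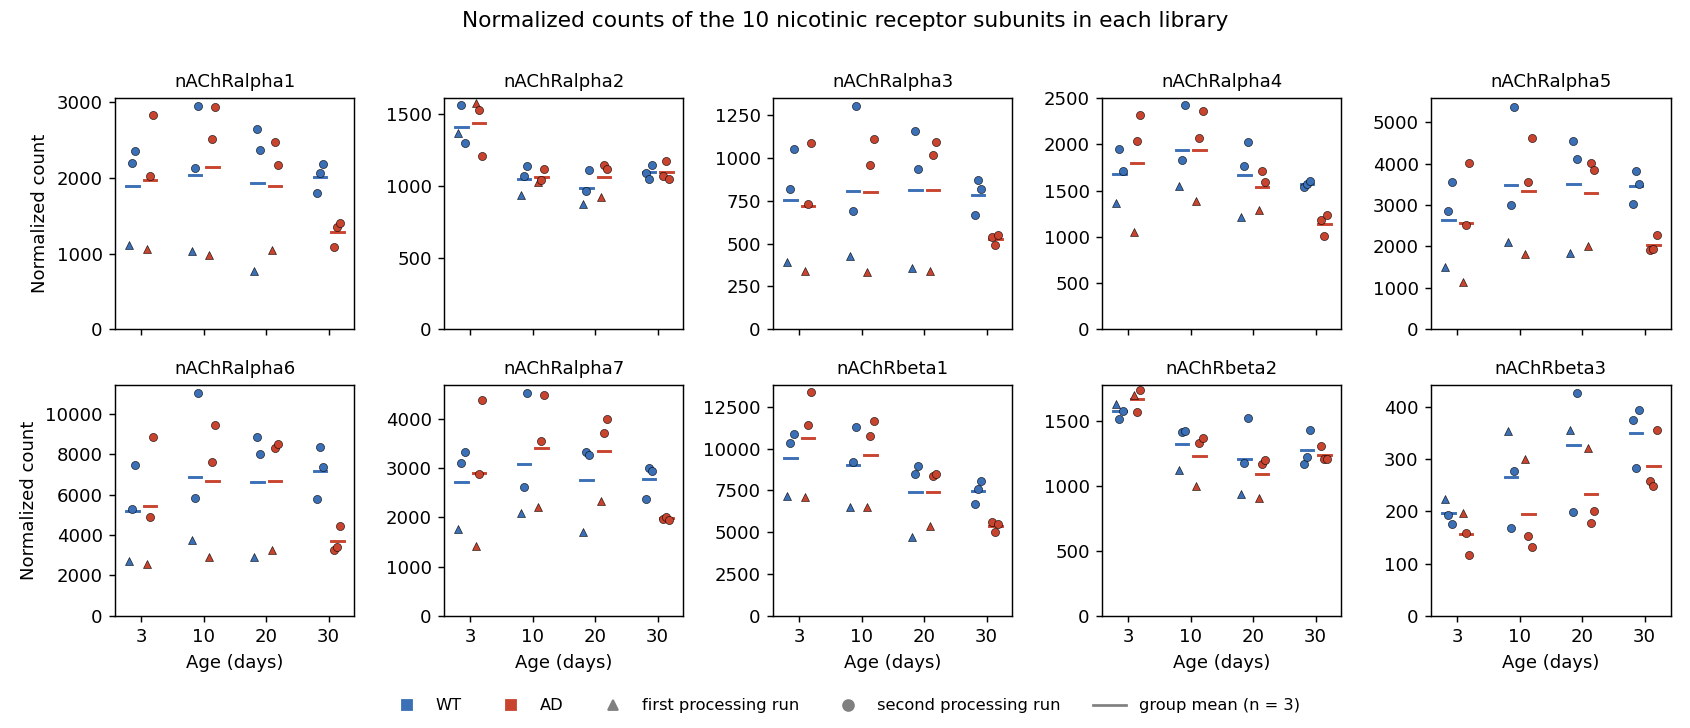
Normalized counts of the 10 subunits by age, for WT (blue) and AD (red) libraries, with first-run libraries as triangles and horizontal lines at the mean of the 3 libraries of a group. Within each group that holds one, the triangle lies lowest for α1, α3 to α7, and β1. The group means of α2 and β2 are highest at day 3, and the AD libraries of day 30 lie below the WT libraries of day 30 for α1, α3 to α7, and β1.

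To see whether the subunits differed between AD and WT heads, the genotypes were compared at each age. At days 3, 10, and 20 none of the 10 passed a false discovery rate (FDR) under 0.05 in the quasi-likelihood test of edgeR, and none had an unadjusted p under 0.05. DESeq2 and limma, which like this test were fitted without a term for the run, also called none. Over all tested genes 0.0286%, 0.210%, and 0.153% passed at these ages, and 372, 320, and 464 genes had an unadjusted p below 0.05. The log2 fold changes ran from -0.32 to 0.17 at day 3, from -0.44 to 0.15 at day 10, and from -0.48 to 0.27 at day 20, with β3 the lowest member at each of these ages. The 95% intervals of the single genes together reached from -1.14 to 1.11 in this fit, in which each of these groups held libraries of both runs. With the replicate block the SE at day 10 was 0.24 in place of 0.48 for α1 and 0.27 in place of 0.53 for α6. The block also called no member at days 10 and 20, beside 27 and 21 of all genes. In the mean of the 4 ages none passed either (lowest FDR 0.410, 1.29% of all genes). The lowest was that of β3 at -0.38 (SE 0.17), the 1 member with an unadjusted p under 0.05, among 1142 such genes.

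At day 30 the AD libraries held fewer counts of 7 of the 10 subunits, by 0.46 to 0.96 on the log2 scale. The largest difference was that of α6, with 5815, 8376, and 7402 normalized counts in WT and 3276, 3388, and 4451 in AD. For α5 the WT libraries were at 3024, 3822, and 3513 and the AD libraries at 1919.9, 1925, and 2263. All AD libraries were below all WT libraries for both genes. For α1, a target of neonicotinoids, the values were 1794, 2065, and 2188 in WT and 1085, 1351, and 1403 in AD. For β1 they were 6659.6, 7581, and 8084 in WT and 5608, 4999, and 5477 in AD. The groups did not overlap for either gene, and the same held for α3, α4, and α7, in which WT was at 668, 869.6, and 820.1 (α3), 1538, 1577, and 1606 (α4), and 2380.0, 3006, and 2943 (α7). The AD libraries were at 541, 489, and 548 for α3, 1182, 1004, and 1237 for α4, and 1973, 2008, and 1952 for α7. Across all tested genes, 12.0% had every AD library below every WT library at day 30. The other 3 subunits overlapped, with 1092, 1050.0, and 1142 in WT and 1069, 1176, and 1046 in AD for α2, and 1169, 1223, and 1433 in WT and 1306, 1206, and 1209 in AD for β2.

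Whether these differences passed the test depended on the libraries and terms of the fit. In the fit of all 24 libraries 0 of 10 passed (lowest FDR 0.722, edgeR), with log2 fold changes of -0.96 (SE 0.54, FDR 0.726) for α6, -0.76 (SE 0.46, FDR 0.776) for α5, -0.66 (SE 0.49, FDR 0.853) for α1, and -0.47 (SE 0.28, FDR 0.778) for β1, and 0.0286% of all genes passed. No member had an unadjusted p under 0.05, among 824 genes that did. DESeq2 and limma, which were also fitted to all 24 libraries without a term for the run, called no member. With the processing run as a covariate 4 were lower at FDR under 0.05, namely α6 (0.0364), α1 (0.0414), β1 (0.0287), and α5 (0.0497), against 0.992% of all genes, and the same 4 without AD day 30 replicate 3, against 2.84%. In the 18 second-run libraries alone β1 (0.0481) and α1 (0.0488) passed, against 0.894% of all genes, and without AD day 30 replicate 3 α1, α4, α6, and β1 did, against 3.86%. In a fit of the 6 day 30 libraries alone, which all belong to the second run, 7 were lower, against 2.14% of all genes.

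The fold changes were similar in these fits and the standard errors were not. In the 6 libraries alone the log2 fold change was -0.95 (SE 0.15, FDR 0.0184) for α6, -0.75 (SE 0.11, FDR 0.0164) for α5, -0.65 (SE 0.12, FDR 0.0242) for α1, and -0.57 (SE 0.12, FDR 0.0331) for α3. It was -0.48 (SE 0.10, FDR 0.0339) for α7, -0.46 (SE 0.10, FDR 0.0331) for β1, and -0.46 (SE 0.09, FDR 0.0329) for α4. Without AD day 30 replicate 3, the library with the WT-like w count, the same 7 passed in the day 30 libraries alone, with α6 at -1.10 (SE 0.13, FDR 0.00042) and α1 at -0.71 (SE 0.11, FDR 0.00219), against 9.08% of all genes lower. Neither α2 (0.01, SE 0.09, FDR 0.962) nor β2 (-0.03, SE 0.10, FDR 0.909) passed in any of these fits, and β3 was at -0.28 (SE 0.18, FDR 0.439).

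**Figure D3:**
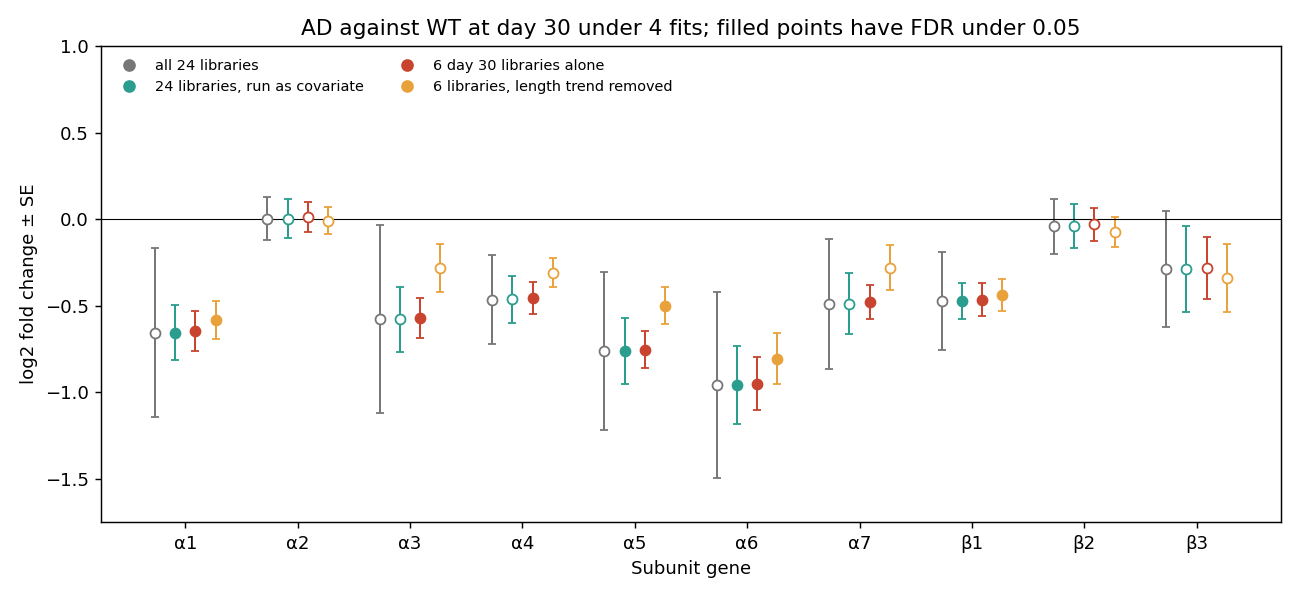
The log2 fold change of AD against WT at day 30 for each subunit, with its standard error, in 4 edgeR fits, namely all 24 libraries, the same with the processing run as a covariate, the 6 day 30 libraries alone, and these 6 with the trend over gene length removed. Filled points passed FDR under 0.05, and the counts of members that passed were 0, 4, 7, and 4.

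Gene length moved with this difference. Over all tested genes the median log2 fold change of AD against WT at day 30 was 0.04 for genes of 1500 to 2500 bases, the class of α2, β2, and β3, and -0.03 for 2500 to 4000 bases, -0.10 for 4000 to 6000 bases, and -0.21 for more than 6000 bases. The 7 subunits that were lower have 3146 to 10506 bases, and each lay below the median of its class, α3 at -0.58 and α5 at -0.76 in the longest class. After the trend over length was removed from the 6 libraries, 4 subunits were lower against 1.75% of all genes, with α6 at -0.81 (SE 0.14, FDR 0.0320), α1 at -0.58 (SE 0.11, FDR 0.0377), α5 at -0.50 (SE 0.11, FDR 0.0420), and β1 at -0.44 (SE 0.09, FDR 0.0418). The values of α3 (-0.28, SE 0.14, FDR 0.282), α7 (-0.28, SE 0.13, FDR 0.253), and α4 (-0.31, SE 0.08, FDR 0.0718) no longer passed. Without AD day 30 replicate 3 the same 4 passed with the length trend removed, with α6 at -0.86 (SE 0.15, FDR 0.00831), against 6.07% of all genes. With the run as a covariate and the length trend removed 0 passed (lowest FDR 0.0732). Markers of neurons had the same sign. All 8 had a negative fold change at day 30, with a median of -0.57, and their summed normalized counts were 61359 to 64569 in WT and 38162 to 50186 in AD. None of the 8 passed in the fit of all libraries (lowest FDR 0.366). With the run as a covariate para and Appl passed, against 0.992% of all genes lower, and these and Syt1 without AD day 30 replicate 3, against 2.84%. In the 6 libraries alone elav, para, and cac passed, against 2.14%. Without AD day 30 replicate 3, whose sum was the highest of the AD libraries at 50186, 7 of the 8 passed in the day 30 libraries alone, against 9.08% of all genes lower. The 4 fat body markers had positive values (median 0.33), with overlapping sums of 37151 to 46899 in WT and 41967 to 63895 in AD, and Lsp2 passed as higher in the 6 libraries alone (2.31% of all genes) and without AD day 30 replicate 3 (7.05% of all genes). None of the 6 photoreceptor markers passed, but their summed normalized counts did not overlap, with 1053440.0 to 1138420.0 in WT and 936739 to 990474 in AD. In the 6 libraries alone their log2 fold changes ran from -0.33 to 0.03 with a median of -0.08, and 5 of 6 were negative. A sum can be led by its most abundant gene, and 12.0% of all single genes lay wholly below in this way. The sums of the glial markers (20822 to 23800.1 in WT, 18147 to 24041 in AD) and of the muscle markers (30648 to 37467 in WT, 25879 to 34048 in AD) overlapped. Without AD day 30 replicate 3 the glial gene Eaat1 (-0.49, FDR 0.0084) and the muscle gene Mlc2 (-0.46, FDR 0.020) passed as lower in the day 30 libraries alone, against the same 9.08%. Without that library Eaat1 also passed with the run as a covariate, against 2.84%. The share of mt:ND5 overlapped at day 30, with 2.12% to 2.65% in WT and 1.76% to 2.99% in AD. The part of RNA length, of neuronal RNA, or of other cell types in the subunits' difference was not tested.

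**Figure D4:**
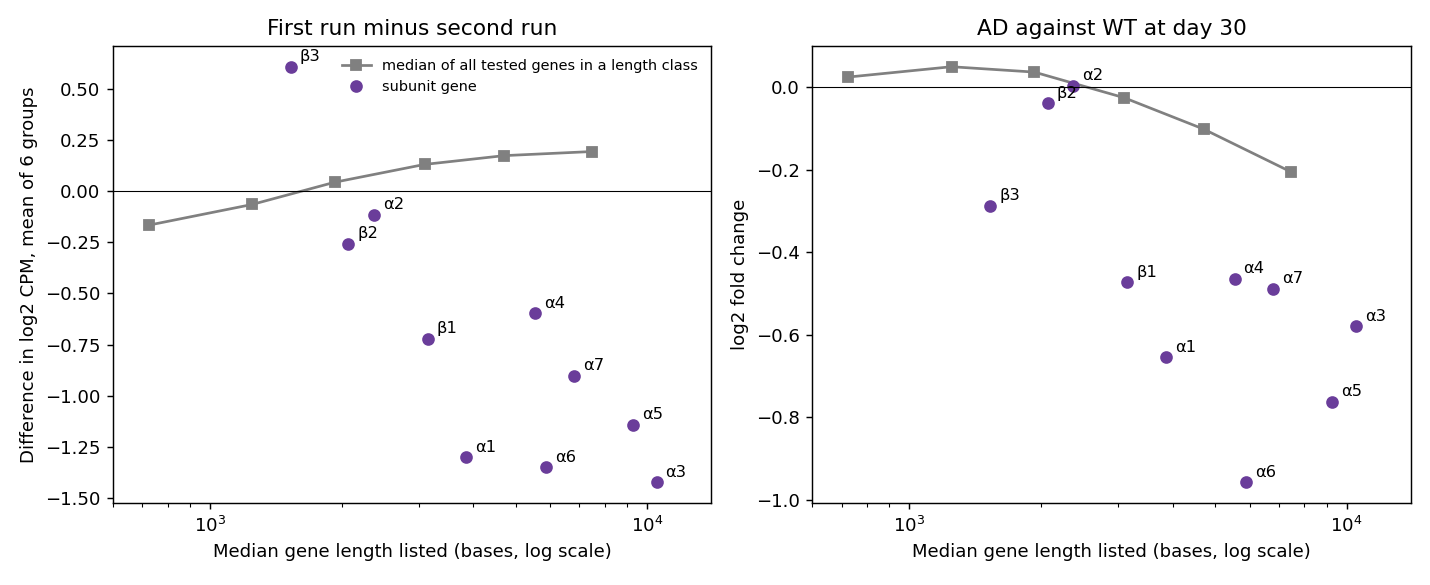
Subunit genes (purple) and the median of all tested genes in 6 length classes (grey squares) against the median listed length (log axis), for the difference of the first run from the second in log2 CPM (left) and for the log2 fold change of AD against WT at day 30 (right). The grey medians run from -0.17 to 0.19 with length on the left and down to -0.21 on the right, whereas the 7 longer subunits lie below them in both panels.

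The effect of age was examined over both genotypes, which hold the same number of libraries of each run at days 3, 10, and 20. The α2 and β2 subunits, neighbours in the 3R cluster, fell between day 3 and day 10 and remained lower. For α2 the day 3 libraries were at 1370.2, 1564, and 1302 in WT and 1576, 1526, and 1211 in AD, and the day 10 libraries at 936, 1071, and 1136 in WT and 1024, 1044, and 1119.7 in AD. All 6 libraries of day 10 were below all 6 of day 3, as for 3.40% of all tested genes. The log2 fold change of α2 was -0.43 (SE 0.09, FDR 0.00301) at day 10, -0.48 (SE 0.09, FDR 0.00049) at day 20, and -0.38 (SE 0.09, FDR 0.00235) at day 30. The groups also did not overlap at days 20 and 30 (5.90% and 8.84% of all genes lay below in this way), at which the libraries of α2 were at 876, 964, and 1109 (WT day 20), 923, 1146, and 1120.2 (AD day 20), 1092, 1050.0, and 1142 (WT day 30), and 1069, 1176, and 1046 (AD day 30). The counts of α2 thus reached their lower level by day 10 in both genotypes. For β2 the day 3 libraries were at 1628, 1515, and 1576 in WT and 1703, 1572, and 1736 in AD, and those of day 10 at 1126, 1412, and 1421 in WT and 996, 1334, and 1366 in AD. All 6 libraries of day 10 were again below all 6 of day 3. Its log2 fold change was -0.35 (SE 0.11, FDR 0.0463) at day 10, -0.50 (SE 0.11, FDR 0.00301) at day 20, and -0.37 (SE 0.11, FDR 0.0168) at day 30. At day 20 a single WT library of β2, at 1520.2, reached into the day 3 range. The call of β2 at day 10 was lost when any library of days 3 and 10 but AD day 10 replicate 3 was left out, with log2 fold changes of -0.39 to -0.28, and in the second run alone it was at -0.20 (SE 0.09, FDR 0.200).

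In all, 2 of 10 subunits fell and none rose at day 10, where 8.34% of all genes fell and 5.21% rose, and 2 fell and none rose at day 20, where 14.2% fell and 12.6% rose. At day 30, α2, β2, and β1 fell and β3 rose, beside 17.9% of all genes that fell and 15.8% that rose. With the run as a covariate, α5 was higher at day 20 (0.41, SE 0.14, FDR 0.0205) as was β3 (0.64, SE 0.18, FDR 0.00865), and β1 was lower (-0.45, SE 0.07, FDR 0.00011) along with α2 and β2, beside 20.2% of all genes lower and 18.6% higher. At day 10 the replicate numbers were taken as pairs, although the pairing is uncertain. The replicate block called the same 2 subunits there, with β2 at -0.36 (SE 0.09, FDR 0.0108), beside 2163 called genes in either direction in place of 1420. Its term for the replicate number was shared by all 24 libraries. These include the day 30 libraries, whose same-numbered libraries did not correlate above 0.1. In the fit with the run as a covariate α5 was higher at day 10 as well, at 0.43 (SE 0.14, FDR 0.0277), beside 10.7% of all genes.

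The β1 subunit, the most abundant, was lower at day 30 than at day 3 in the fit of all libraries, and at day 20 with the run as a covariate. Its day 3 libraries were at 7164, 10314, and 10839 in WT and 7104, 11393, and 13372 in AD, its day 10 libraries at 6529, 9204, and 11313 in WT and 6484, 10731, and 11631 in AD, and its day 20 libraries at 4700.3, 8505, and 8949 in WT and 5363, 8357, and 8504 in AD, where the first value of each set is the first-run library. The day 20 log2 fold change was -0.44 (SE 0.20, FDR 0.116) in the fit of all libraries and -0.45 (SE 0.07, FDR 0.00011) with the run as a covariate. At day 30 it was -0.67 (SE 0.20, FDR 0.0157), with -0.87 (SE 0.08, FDR 5.8e-08) under the covariate and -0.87 (SE 0.09, FDR 3.3e-06) in the second run alone. In AD alone the change of β1 to day 30 was -0.99 (SE 0.29, FDR 0.0184), and in WT alone it was -0.34 (SE 0.28, FDR 0.478), or -0.56 (SE 0.11, FDR 0.001) with the covariate. The AD call of β1 was lost without AD day 3 replicate 2 (-0.96, FDR 0.0591), AD day 3 replicate 3 (-0.80, FDR 0.0712), or AD day 30 replicate 2 (-0.94, FDR 0.0728).

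Since day 30 held no first-run library, the comparison of day 30 with day 3 was also read with the run taken into account. Within the second run the share of mt:ND5 was 5.48% to 8.23% at day 3, 4.38% to 7.12% at day 10, 3.87% to 4.69% at day 20, and 1.76% to 2.99% at day 30, and its part in the changes with age was not tested. In WT, 0 of 10 passed in the fit of all libraries (lowest FDR 0.0574 for α2, 11.2% of all genes in either direction, 2 members and 2757 genes at an unadjusted p under 0.05). With the covariate α2 (-0.41, SE 0.11, FDR 0.0162), β1 (-0.56, SE 0.11, FDR 0.001), and β2 (-0.40, SE 0.13, FDR 0.0373) were lower and β3 (1.03, SE 0.26, FDR 0.00846) was higher in WT, beside 10.2% of all genes lower and 8.62% higher. In AD, α2 (-0.39, SE 0.12, FDR 0.0276) and β1 fell in the fit of all libraries, beside 11.7% of genes that fell and 10.2% that rose, and the call of α2 was lost without AD day 3 replicate 1 or 2 or AD day 30 replicate 1 or 3 (FDR 0.0729 to 0.0883). With the covariate 9 of 10 were lower in AD, from -1.18 (β1) to -0.43 (α2), and β3 was higher at 1.08 (SE 0.26, FDR 0.00338), beside 18.7% of all genes lower and 17.2% higher. Over both genotypes the covariate gave 7 lower subunits beside 22.2% of all genes and 1 higher beside 21.6%, with α1 at -0.62 (SE 0.12, FDR 0.00029), α3 at -0.56 (SE 0.14, FDR 0.00314), α4 at -0.54 (SE 0.10, FDR 0.00022), and α7 at -0.48 (SE 0.13, FDR 0.00527) joining α2, β1, and β2. The same 8 genes passed in the second run alone, beside 20.3% of all genes lower and 17.8% higher. For α5 (-0.24, SE 0.14, FDR 0.169) and α6 (-0.38, SE 0.16, FDR 0.0672) no call was reached in these fits. With the length trend also removed, 5 were lower, without α3 and α7, beside 23.9% of all genes, and β3 was higher beside 22.5%.

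A difference between the genotypes in the change from day 3 to day 30 was tested with an interaction term. None of the 10 subunits and none of the 10479 genes passed (0.00% called, edgeR, with 387 genes and no member at an unadjusted p under 0.05), and DESeq2 called 14 genes and no member. The estimates were negative for 9 of 10, with a median of -0.57 and the lowest at -1.03 (SE 0.75, FDR 1.0) for α6, whose 95% interval was -2.51 to 0.45. With the run as a covariate the lowest FDR among the 10 was 0.351. A fall with age in AD that exceeds that in WT was therefore not established for any subunit.

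The β3 subunit, a divergent member of the family, was the 1 member that rose between day 3 and day 30. Its libraries were at 224, 192, and 176 normalized counts in WT and 198, 159, and 116 in AD at day 3, and at 376, 283, and 395 in WT and 258, 248, and 357 in AD at day 30. All libraries of day 30 were above all of day 3, as for 8.52% of all tested genes, and the log2 fold change was 0.84 (SE 0.24, FDR 0.0110) over both genotypes and 1.06 (SE 0.19, FDR 0.00016) with the run as a covariate. Ets21C, a transcription factor gene of stress responses whose exons cover β3 on the opposite strand, rose in the same comparison with a log2 fold change of 2.05 (SE 0.23, FDR 3.0e-06). Its libraries were at 33.9, 69.2, and 77.4 in WT and 31.8, 38.9, and 61.4 in AD at day 3, and at 171, 156, and 147 in WT and 302, 238, and 309 in AD at day 30. The expected counts of β3 were fractional in all 24 libraries, as RSEM gives where a read fits more than 1 gene. Those of α3 were fractional in 22 libraries and those of α4 in 18, and the part of shared reads in their values was not tested. The ratio of the expected count of β3 to that of Ets21C ran from 0.672 to 6.63. At day 30, AD against WT, β3 was at -0.29 (SE 0.34, FDR 0.974) and Ets21C at 0.84 (SE 0.32, FDR 0.483). In the day 30 libraries alone Ets21C was higher at 0.85 (SE 0.15, FDR 0.0230), and at 0.79 (SE 0.16, FDR 0.00884) without AD day 30 replicate 3. The summed counts of β3 and Ets21C overlapped between the genotypes, with 439 to 547 in WT and 486 to 665 in AD. How many of the reads counted for β3 came from Ets21C was not tested, and the rise of β3 is uncertain for this reason.

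**Figure D5:**
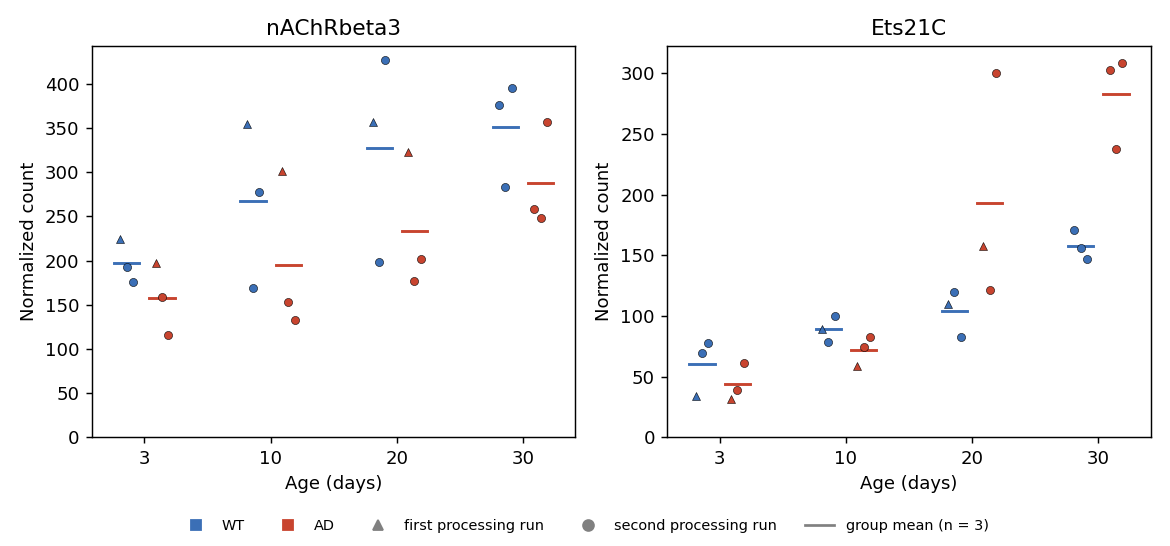
Normalized counts of β3 and of the overlapping gene Ets21C by age in WT (blue) and AD (red), with first-run libraries as triangles and lines at the group means. Both genes are higher at day 30 than at day 3 in all libraries, and at day 30 the AD libraries of Ets21C lie above those of WT whereas those of β3 overlap.

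Other genes of cholinergic transmission were read beside the subunits. Of the 4 genes that make, load, recover, and break down acetylcholine, 3 fell between day 3 and day 30 over both genotypes, namely ChT, the choline transporter, at -0.59 (SE 0.15, FDR 0.00512), VAChT, the vesicular transporter, at -0.61 (SE 0.22, FDR 0.0368), and Ace, acetylcholinesterase, at -0.40 (SE 0.12, FDR 0.0153). ChAT, which synthesizes acetylcholine, was at -0.41 (SE 0.19, FDR 0.104). Of 3 genes that act on the receptors, Ric3, a chaperone of receptor assembly, was lower at -0.42 (SE 0.09, FDR 0.00173), as was Adar, the RNA editing enzyme that edits subunit transcripts, at -0.54 (SE 0.14, FDR 0.00622), and qvr (sleepless) was at -0.31 (SE 0.12, FDR 0.0504). None of the 2 muscarinic receptor genes of 3 that could be tested passed. Of the 11 tested among 12 other Cys-loop channel genes, which are mostly gated by GABA, glutamate, or histamine and carry inhibition, 6 fell and none rose, from -0.68 (SE 0.09, FDR 9.4e-06) for the histamine channel HisCl1 to -0.34 (SE 0.12, FDR 0.0338) for ort. The background for these counts is the same 17.9% of all genes that fell. Of the 8 neuron markers, 3 fell over the same ages, with a median of -0.33 for the list. Markers of other cells also moved with age, since 4 of 7 glial markers fell and 1 rose (median -0.86) and 5 of 6 tested muscle markers fell (median -1.51), and their part in the subunits' changes was not tested. Among the neuron markers, 6 of 8 fell with the run as a covariate (median -0.42). So did all 4 acetylcholine genes, all 3 genes that act on the receptors, and 7 other Cys-loop genes, with Rdl and pHCl-1 but without ort. The counts of glial and muscle markers were the same in that fit. Its background is the 22.2% of all genes that fell. In the 6 day 30 libraries alone, AD against WT, VAChT, ChT, qvr, Rdl, GluClalpha, and pHCl-1 were lower, against the 2.14% given above, and none of the cholinergic and Cys-loop genes was higher. Of these 6, VAChT, ChT, and Rdl passed with the run as a covariate, against 0.992% of all genes lower. All 6 passed in that fit without AD day 30 replicate 3, as did Ace (FDR 0.0373), against 2.84%. None of the 6 passed in the fit of all libraries (FDR 0.400 to 0.782). Without AD day 30 replicate 3 all 6 passed in the day 30 libraries alone, as did Ace and Adar, against 9.08% of all genes lower.

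As a description, the genes whose log2 CPM followed the mean of the 10 standardised subunits most closely over the 24 libraries were eIF4EHP (r = 0.979), nmo (0.976), CanA-14F (0.975), ct (0.974), and CG4612 (0.973). These libraries share the split by run and the day 30 difference, and the correlations were 0.957 to 0.975 over the 18 second-run libraries. On log2 FPKM 3 of these 5 were among the closest 5, and Dhit was first (0.971). Each member is itself part of the mean, and the correlation was 0.880 to 0.965 for the 7 subunits α1, α3 to α7, and β1 (0.862 to 0.935 in the second run), while β2 (0.564), α2 (0.300), and β3 (-0.436) followed it less or ran opposite.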

How the data were processed

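Heads of male flies of both genotypes were measured by RNA-Seq at 4 ages, with 3 libraries per group, and groups were taken from the sample labels. The authors cleaned reads with SOAPnuke and mapped them to the release 6 genome with HISAT2 2.0.4, and the expected counts they deposited are estimates of RSEM (the processing notes also name Bowtie2, and these versions are not given in the sources used here), without normalization. The FPKM values that the authors deposited divide these by gene length and library size, and the lengths listed beside them are in bases. A gene not listed in a library was taken as 0. Unannotated genes added by the authors (0.287% to 1.15% of the counts) were left out of the tests, and their lengths marked the 2 processing runs. The release 6 annotation gave symbol and position for 13550 of 13700 identifiers. These counts, rounded to integers (whole numbers), entered the quasi-likelihood method of edgeR 4.0.16 (R 4.3.3), with TMM normalization, filterByExpr, and 1 mean per group over 8 groups, for 10479 genes, with Benjamini-Hochberg FDR under 0.05 over all of them. A standard error (SE) is the estimate over the root of its F statistic, and a 95% interval extends 1.96 SE to each side. These intervals are normal approximations and are narrower than the F test implies. For α4 at day 30 against day 3 over both genotypes the interval was -0.73 to -0.02, where the quasi-likelihood test of edgeR gave an unadjusted p of 0.0531. Log2 CPM had a prior count of 2. The alternatives were DESeq2 1.42.0, limma 3.58.1 on log2(FPKM + 1) and log2(FPKM + 0.1), RLE size factors, other filters, a replicate block, the run as a covariate, the second run alone, the 2 groups alone, each library left out, and a 2-fold limit. Fits without AD day 30 replicate 3 and fits with each library's lowess trend of log2 CPM over gene length as an offset were chosen after seeing the data. Replicate numbers of the labels were taken as pairs where deviations of all same-numbered libraries from their group means correlated above 0.1. This held for WT with AD at day 10 (0.319 to 0.761) and day 20 (0.378 to 0.805) and for day 3 with day 10 (0.282 to 0.439 in WT, 0.189 to 0.613 in AD), comparisons in which number 1 is the first-run library. For day 3 with day 20 it held in WT (0.149 to 0.431) but not in AD, and that comparison, which uses both, was not taken as paired. Among numbers 2 and 3, WT and AD libraries of different number correlated at 0.172 and 0.339 at day 10 and at 0.405 and 0.459 at day 20. For day 3 with day 10 such libraries correlated at 0.047 and 0.269 in AD and at 0.045 and 0.062 in WT. Some of these values exceed those of the same number, so that the pairing is uncertain. The text names all members, list genes that passed or stood at the extremes, genes that check labels or runs, and the 5 genes most like the members. Members and lists were chosen with earlier results of these data known. No sequences were analysed here. Summaries used Python 3.11.15. Precision rests on 3 libraries per group of the depths given above.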

Additional observations from a re-analysis of the deposited data

How the results depend on the processing

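Counts of subunits past FDR 0.05 were 0 for AD against WT at days 3, 10, and 20 and for the interaction under every alternative run. At day 30 (0 of 10, AD against WT) the count was 4 with the run as a covariate, 2 in the second run alone, 7 in the day 30 libraries alone, 4 with the covariate or in the second run alone without AD day 30 replicate 3, 7 in the day 30 libraries alone without it, and 4 in these libraries with the length trend removed, with or without it. The mean of the 4 ages (0) gave 1 with the covariate and without that library, beside 666 called genes in place of 135. From day 3 to day 30 WT (0) gave 1 with DESeq2, RLE, the 2 groups alone, or the length trend removed, 2 in the second run alone, and 4 with the covariate, also without that library or with the length trend removed. Over all genes these fits of WT called, in the same order, 1671, 1193, 932, 1498, 1414, 1971, 1942, and 2441, in place of 1169. AD (2) gave 4 with DESeq2, 10 with the covariate, in the second run alone, or with the covariate and without that library, 8 with covariate and length trend, 1 for the 2 groups alone, and 0 with limma at either pseudocount or a 2-fold limit. Over all genes these fits of AD called, in the same order, 2699, 3766, 3031, 3281, 4106, 1282, 2458, 2439, and 805, in place of 2295. The fit of all 24 libraries tested 10479 genes and the second run alone 10288. Both genotypes gave 1 at day 10 (2) without a filter or in the second run alone, 5 at day 20 (2) with the covariate, also without that library or with the length trend removed, 8 at day 30 (4) with the covariate or in the second run alone, and 9 with the covariate and without that library. Over all genes these fits called 1241 and 507 at day 10, 4071, 4316, and 4431 at day 20, and 4594, 3921, and 4416 at day 30, in the same order. The fit of all libraries called 1420, 2803, and 3528 at these ages. A 2-fold limit left 0 subunits at days 10, 20, and 30, beside 348, 697, and 927 genes. Leaving out 1 library at a time gave 0 to 1 in WT, 0 to 2 in AD (0 without AD day 3 replicate 2), 1 to 2 at day 10, 2 to 3 at day 20, and 4 to 5 at day 30 over both genotypes, and 0 for the genotype comparisons. Same-numbered libraries did not all correlate above 0.1 in the other comparisons when both genotypes are considered (WT with AD 0.088 to 0.646 at day 3 and -0.113 to 0.046 at day 30, day 3 with day 20 0.017 to 0.543 in AD, day 3 with day 30 -0.121 to -0.041 in AD and -0.088 to -0.008 in WT), so that the numbers were not taken as pairs there. The replicate block gave 2 in WT, 5 in AD, 4 at day 20, 5 at day 30 over both genotypes, and 0 for the genotype comparisons. Over all genes it called 1860 in WT, 3152 in AD, 3647 at day 20, and 4340 at day 30 over both genotypes. Some fold changes turned sign, most of them near 0. For AD against WT at day 30, α2 (0.003) was -0.005 with DESeq2, -0.004 with RLE, -0.008 with the day 30 libraries and the length trend removed, and -0.017 with the length trend removed in all libraries, with or without the covariate, and leaving out 1 library gave -0.046 to 0.04 for α2 and -0.10 to 0.05 for β2. From day 3 to day 30 over both genotypes, α5 (0.03) was -0.24 with the covariate, -0.30 in the second run alone, -0.29 with the covariate and without AD day 30 replicate 3, and -0.073 with covariate and length trend. With limma on log2(FPKM + 1) and log2(FPKM + 0.1), α1 (-0.26) was 0.50 and 0.53, α3 (-0.19) was 0.13 and 0.18, and α6 (-0.04) was 0.29 at both, and FPKM carries the listed lengths, which differ between runs for α1 and α6. With the length trend removed α3 was 0.037 and α6 was 0.10, and α6 was 0.13 with the replicate block. Leaving out 1 library gave -0.16 to 0.27 for α5, -0.22 to 0.23 for α6, and -0.38 to 0.011 for α3. The cause of these changes was not tested. Over all genes, AD against WT at day 3 gave 3 calls, against 10 with DESeq2, 14 with the covariate, 5 with the replicate block, and 0 in the second run or the 2 groups alone. Day 10 gave 22, against 60 with DESeq2, 39 with the covariate, and 5 and 10 in these subsets, and day 20 gave 16, against 50, 32, 30, and 3. Day 30 gave 3, against 88 with DESeq2, 172 with the covariate, 167 in the second run alone, 434 in the 2 groups alone, 1595 and 609 in the 2 groups and in the second run alone without AD day 30 replicate 3, 27 with the block, and 0 with limma. The mean of the 4 ages gave 135, against 288, 389, and 266 with DESeq2, the covariate, and the second run alone, and 283 with the block. From day 3 the covariate gave 2536 at day 10 (1420), 1971 in WT (1169), and 3766 in AD (2295) at day 30, and the second run alone gave 507 at day 10. The interaction gave 0, against 14 with DESeq2. Leaving out 1 library gave 0 to 4 genes at day 3, 2 to 7 at day 10, 1 to 35 at day 20, 0 to 31 at day 30, and 89 to 203 in the mean of the ages for AD against WT, and from day 3 876 to 2073 at day 10, 559 to 1774 in WT, and 1355 to 2381 in AD at day 30. Over both genotypes it gave 2188 to 3314 at day 20 and 2980 to 3987 at day 30. The sample size of 3 libraries per group and the split by run limit the precision.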
